A study of Mus musculus with 69 samples.

Results

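The genes described here are Angptl4 and 3 other angiopoietin-like genes, Angptl1, Angptl2 and Angptl7, in murine vascular cells exposed to metabolic and humoral stressors. They were chosen by name, 4 of the 56953 genes in the count tables, and their paired ratios to Control were in view when they were chosen. These ratios, the contrasts formed from them and the levels of the 4 genes are therefore given as a description, without a test. Angptl6 and Angptl8, of the same family, are described briefly.

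Angiopoietin-like proteins are secreted glycoproteins with an N-terminal coiled-coil domain and, in most members, a C-terminal fibrinogen-like domain that resembles that of the angiopoietins. They do not bind the angiopoietin receptor TIE2. Angptl4 encodes an inhibitor of lipoprotein lipase, the enzyme on the capillary wall that releases fatty acids from triglyceride-rich lipoproteins, and is a known target of the fatty acid-sensing PPAR transcription factors. Proprotein convertases cleave ANGPTL4 between its domains, and the C-terminal fragment is known to bind integrins and to act on endothelial cells. Angptl2 encodes a protein linked to vascular and adipose inflammation, Angptl1 one described as anti-angiogenic, and Angptl7 one best known from the eye, where it is linked to the extracellular matrix and intraocular pressure. Angptl8 encodes a liver-centred partner in the inhibition of lipases.

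RNA-Seq was available for 69 libraries of primary cells from 13 male C57BL/6 mice, in 3 groups: vascular smooth muscle cells (VSMC) labelled WT, VSMC labelled EGFR-KOsmc (KO VSMC) and endothelial cells (EC) labelled WT. The EGFR, a receptor tyrosine kinase, was deleted by a Cre recombinase driven by the SM22 promoter, which is active in smooth muscle. VSMC were grown from thoracic and abdominal aorta and EC from the heart, the EC by depletion of CD45-positive cells and selection of CD31-positive cells. Each set of libraries came from 1 preparation kept as Control or exposed for 24 h to 20 mM glucose with 100 µM free fatty acids (HG+FFA), to 30 nM angiotensin II with 300 nM epinephrine (AII+NA, spelled as in the labels), or to all of these (ALL). Doses and agents are those of the labels. The study's methods name norepinephrine in place of epinephrine and give the stated fatty acid dose for each of oleate and palmitate, not for their sum. They also state that albumin, used to keep the fatty acids in solution, was present in all conditions. The age of the mice was not used here. There were 4 sets of WT VSMC (sets 1 to 4, 16 libraries), 4 of KO VSMC (sets 5 to 8, 15 libraries) and 10 of EC (sets 9 to 18, 38 libraries). Not analysed here were ALL in KO set 5, Control in EC set 10 and AII+NA in EC set 15. A single animal gave EC sets 17 and 18, and EC sets 9, 10, 15 and 16 from animals that also gave VSMC sets 1, 2, 7 and 6. The EC of sets 15 and 16, labelled WT, thus came from 2 of the animals with the KO VSMC. The batch label, the organ and the cell type split the libraries in the same way and cannot be told apart.

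The libraries held 17166133 to 43240489 counts, with a median of 27143351. The level of a gene is given as FPM, its fragments relative to library size after scaling across all 69 libraries. Averaged over the libraries of a set, Egfr was at 0.265 to 0.503% of the WT VSMC mean in KO sets 6 to 8 but at 10.1% in KO set 5, so that this set kept the most Egfr of the KO VSMC. In EC, the summed level of 12 endothelial marker genes ran from 502.2 to 5323 FPM in 7 sets, while sets 9, 11 and 13 stayed between 55.8 and 149.1 FPM. The highest VSMC library had 83.51 FPM. These 3 sets go against their label and EC results are given with and without them, a choice made after the data were seen. The limit was 5% of the sum in the highest EC library. The 7 sets above it, called high below, are mixed. Among them, set 17 had only 502.2 to 667.5 FPM and set 16 had 792.7 to 871.7 FPM. Even in the EC with high sums, Cldn5 and Gpihbp1 were near 0. In VSMC the smooth muscle gene Tagln was at 1.7 to 10.6 FPM. The sum of 8 smooth muscle markers under Control was 384.5 to 1221 FPM in WT VSMC and 967.3 to 3074 FPM in KO VSMC. Cldn5, Gpihbp1 and Tagln are single genes picked for their low levels. Nothing about cell identity is read from them. Adipocyte markers summed to no more than 1.313 FPM in any library.

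In the mouse genome (GRCm39), Angptl4 (ENSMUSG00000002289) lies on the minus strand of chromosome 17, from 33992724 to 34000804, in 6 exon blocks with 4497 exon bases. None of these bases overlaps an exon of another annotated gene, and no protein-coding gene surrounds Angptl4. The other 3 genes each lie inside a larger one. Angptl7 (ENSMUSG00000028989, chromosome 4, 148579639 to 148584923) is in the body of Mtor on the opposite strand, Angptl2 (ENSMUSG00000004105, chromosome 2, 33105946 to 33138252) in that of Ralgps1, and Angptl1 (ENSMUSG00000033544, chromosome 1, 156666132 to 156688648) in that of Ralgps2 on the opposite strand. None of the 4 shares exon bases with the gene around it. For Angptl1, however, 16.37% of the exon bases overlap an exon of some other annotated gene, and the sources do not state whether the counting used strand, so that reads there cannot be assigned with certainty.

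The RefSeq promoter table (GRCm38.p6) held 3 of the 4 genes and had no entry for Angptl4. The 250 bases before the start are shown for Angptl7, which was lower in the conditions where Angptl4 was higher, and for Angptl2, which had no shared direction, so that both can be read beside their values. Capitals mark letters that match 1 of 5 searched motifs, on either strand. The Angptl7 stretch is chr4:148500463-148500712 on the minus strand and that of Angptl2 is chr2:33215711-33215960 on the plus strand.
Angptl7: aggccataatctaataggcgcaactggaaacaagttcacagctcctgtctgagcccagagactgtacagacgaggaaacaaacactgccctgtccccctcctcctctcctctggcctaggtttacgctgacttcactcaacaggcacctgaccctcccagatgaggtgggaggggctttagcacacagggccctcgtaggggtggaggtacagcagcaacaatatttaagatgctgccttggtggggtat
Angptl2: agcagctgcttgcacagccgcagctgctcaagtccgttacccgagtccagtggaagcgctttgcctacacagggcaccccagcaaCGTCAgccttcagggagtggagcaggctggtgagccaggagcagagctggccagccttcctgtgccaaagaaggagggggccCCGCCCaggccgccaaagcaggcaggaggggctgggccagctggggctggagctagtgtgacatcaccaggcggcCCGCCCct

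The Angptl7 stretch had a GC content of 54.4% and held none of the 5 motifs. That of Angptl2 had 66.8% and held the GC box GGGCGG 2 times on the other strand, the match farthest upstream at 83 bases before the start, and the cAMP response element core TGACG once on the other strand. Angptl1 held TGACG once, 148 bases before its start. Of 32851 promoters, 32.7% held the GC box, 17.8% TGACG, 12.4% the TATA box TATAAA, 6.02% the E-box CACGTG and 0.338% the PPAR-type response element, searched as a direct repeat of AGGNCA with 1 base between the repeats. No match of the direct repeat was present in the 3 windows. Angptl4 was not among them, so that nothing is said of its promoter.

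Under Control and with all sets, Angptl4 had the highest mean level per length of the 4 genes in each group. In EC this order rested on the sets low in endothelial markers. In WT VSMC the mean was 69.2 FPM per kb of exon (SD 38.9, n = 4) for Angptl4, against 15.98 (SD 4.31) for Angptl2, 3.07 (SD 2.26) for Angptl7 and 1.06 (SD 0.628) for Angptl1. In KO VSMC the order of the means was Angptl4 with 40.1 (SD 41.5, n = 4), Angptl7 with 20.6 (SD 35.0), Angptl2 with 13.9 (SD 1.53) and Angptl1 with 0.828 FPM per kb (SD 0.672). The first 3 did not differ beyond their spread, and the position of Angptl7 rests on set 5, described below. In EC the mean level per length was 16.9 FPM per kb (SD 31.8, n = 9) for Angptl4 and 11.03 (SD 6.49) for Angptl2, which did not differ beyond their spread. Angptl7 followed with 2.03 and Angptl1 with 0.309 FPM per kb. In the 6 EC Control sets with high endothelial sums, Angptl4 was at 0.9066 to 4.432 FPM per kb. Angptl2 was at 4.295 to 11.79 FPM per kb there and above Angptl4 in each of these sets.

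As background for the ratios to Control, 0.329% of all genes tested were called changed by HG+FFA against Control in WT VSMC (0.226% higher and 0.103% lower), 0.291% in KO VSMC (0.236% and 0.0558%) and 0.67% in EC (0.257% and 0.413%). A call here means an FDR below 0.05 in both edgeR and DESeq2, a log2 fold change (log2FC) of at least 0.64 in size and at least 3 FPM in a group. For ALL against Control the shares were 2.35%, 0.353% and 0.64%, and for AII+NA 0.0516%, 0% and 0%. Since the 4 genes were chosen with their values in these contrasts known, nothing is read from the comparison with these shares.

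Angptl4 was higher with HG+FFA than with Control in 17 of 17 sets with both libraries, and higher with ALL than with Control in 16 of 16. In WT VSMC the Control levels were 99.55, 358.4, 268.3 and 518.9 FPM in sets 1 to 4. With HG+FFA the same sets had 539.3, 533.7, 817.7 and 802.6 FPM, and with ALL 490.5, 611.7, 807.9 and 741.8 FPM. The lowest HG+FFA library was above the highest Control library, while ALL and Control overlapped through set 1. For HG+FFA against Control 0.226% of all genes were called higher, which is another measure than groups that do not overlap. The share of all genes without overlap was not computed. With AII+NA the levels were 93.38, 443.1, 291.0 and 463.1 FPM, each near the Control level of its own set, 2 above and 2 below. Set 1 started lowest and ended near the others under HG+FFA.

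In KO VSMC the Control levels of Angptl4 were 417.2, 29.37, 32.11 and 241.6 FPM in sets 5 to 8, a 14.2-fold range against 5.21-fold in WT VSMC. With HG+FFA they were 756.0, 253.4, 242.5 and 593.2 FPM. With ALL, sets 6 to 8 had 225.8, 258.2 and 639.5 FPM. The groups overlapped because set 5 under Control was above sets 6 and 7 under HG+FFA, although each set was higher with HG+FFA than its own Control. With AII+NA the levels were 413.9, 18.49, 23.45 and 136.3 FPM, in all 4 sets below their own Control.

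In EC the levels of Angptl4 spread most between sets. Under Control they ran from 4.077 to 448.9 FPM with a median of 14.25 (n = 9), a 110-fold range. With HG+FFA they ran from 105.4 to 767.9 FPM (median 192.8, n = 10), a 7.29-fold range. The AII+NA libraries ran from 4.457 to 472.9 FPM (median 14.23, n = 9) and the ALL libraries from 103.1 to 1011 FPM (median 221.9, n = 10). Set 11 was the highest in every condition and set 14 the lowest under Control. In the 6 Control sets with high endothelial marker sums, Angptl4 was at 4.077 to 19.93 FPM (median 11.78), and with HG+FFA the 7 sets had 105.4 to 267.4 FPM, so that these groups did not overlap. Without sets 9, 11 and 13, 0.304% of all genes were called higher with HG+FFA, while the share of all genes without overlap was not computed. In sets 9, 11 and 13 the Control levels were 88.07, 448.9 and 74.16 FPM.

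**Figure D1:**
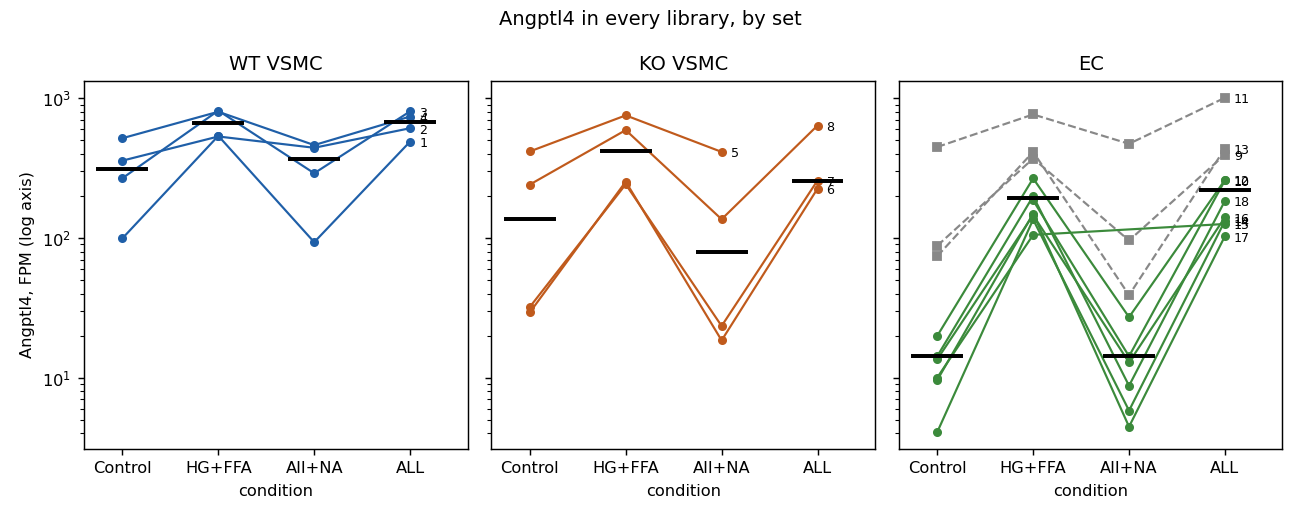
Level of Angptl4 (FPM, log axis) in each library of WT VSMC, KO VSMC and EC by condition; lines join the libraries of a set, the number gives the set, and black bars are medians. The lines rise from Control to HG+FFA in every set with both libraries, to between 533.7 and 817.7 FPM in WT VSMC, and EC sets 9, 11 and 13 (grey dashed, squares), low in endothelial markers, lie above the other EC sets.

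Expressed as ratios within a set, HG+FFA over Control was 1.489 to 5.413 in WT VSMC (mean log2 ratio 1.31, SD 0.89, n = 4), 1.812 to 8.602 in KO VSMC (2.04, SD 1.13, n = 4) and 1.711 to 32.54 in EC (3.18, SD 1.24, n = 9). The highest EC ratio was that of set 14, which had the lowest Control level. In the 6 EC sets with high endothelial sums and both libraries the ratio was 10.42 to 32.54 (mean log2 ratio 3.89, SD 0.60), and in sets 9, 11 and 13 it was 1.711 to 5.585. For ALL over Control the mean log2 ratio was 1.29 (SD 0.81, n = 4) in WT VSMC, 2.45 (SD 0.91, n = 3) in KO VSMC and 3.19 (SD 1.09, n = 9) in EC. For AII+NA over Control it was 0.04 (SD 0.21, n = 4), -0.49 (SD 0.35, n = 4) and -0.21 (SD 0.62, n = 8). All 3 comparisons share their Control libraries. In the EC sets with high endothelial sums the mean log2 ratio was 3.80 (SD 0.60, n = 6) for ALL and -0.18 (SD 0.70, n = 5) for AII+NA. Without KO set 5, the mean log2 ratio of KO VSMC was 2.44 for HG+FFA and -0.65 for AII+NA.

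**Figure D2:**
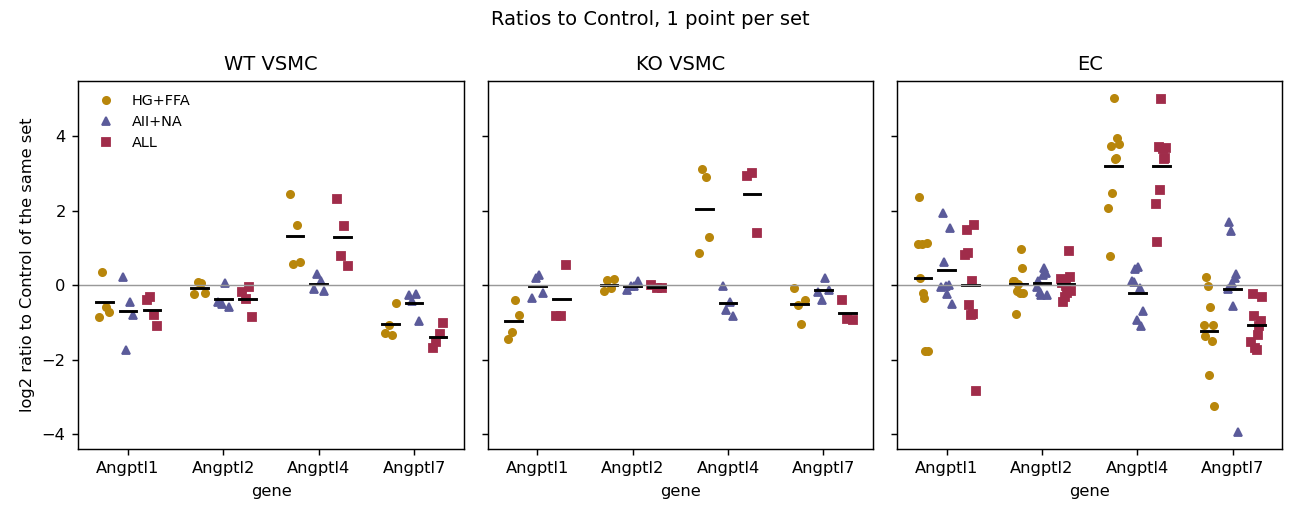
Log2 ratio to Control within each set for Angptl1, Angptl2, Angptl4 and Angptl7 (x axis) under HG+FFA, AII+NA and ALL in WT VSMC, KO VSMC and EC (panels). Each point is a set and black bars are means. Angptl4 lies above 0 for HG+FFA and ALL in every set, with means of 1.31, 2.04 and 3.18 for HG+FFA in the 3 groups, while Angptl7 lies below 0 in all but 1 set for HG+FFA and in every set for ALL.

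The difference in level, HG+FFA minus Control in the same set, was 362.0 FPM (SD 165.5, range 175.3 to 549.4, n = 4) in WT VSMC, 281.2 FPM (SD 74.3, 210.4 to 351.6, n = 4) in KO VSMC and 208.3 FPM (SD 91.1, 95.35 to 340.5, n = 9) in EC. The sets with the lowest Control levels, KO sets 6 and 7 and EC set 14, had among the highest ratios of their groups without the highest differences. In EC sets 9, 11 and 13 the difference was 314.2 FPM (SD 29), in the range of the VSMC, and in the other 6 sets 155.4 FPM (SD 53.5). A ratio contains its own Control level, so that a relation between ratio and Control level is partly fixed by the arithmetic. It is shown without a test.

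**Figure D3:**
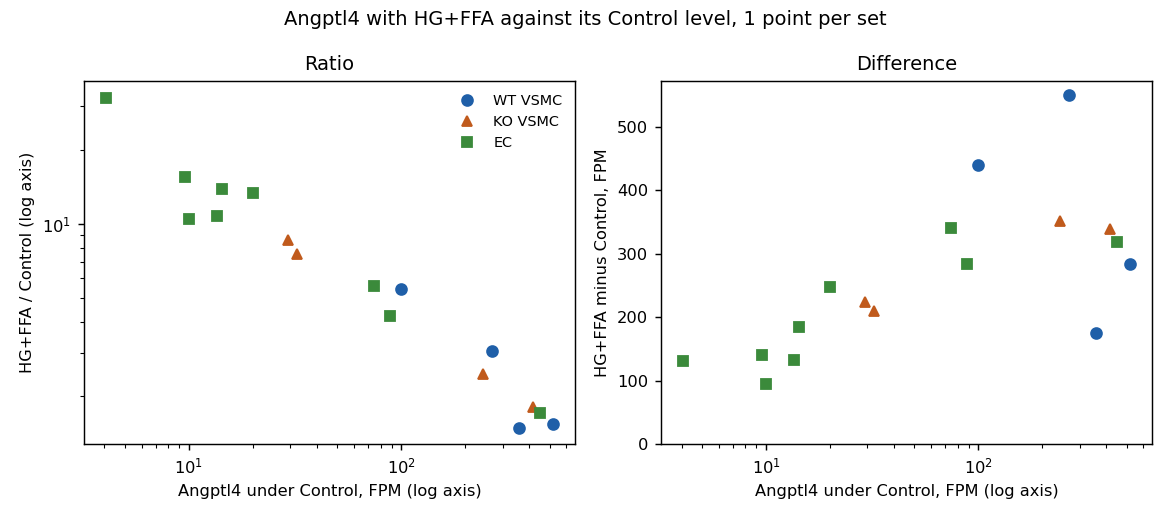
HG+FFA over Control ratio of Angptl4 (left, log axis) and HG+FFA minus Control difference in FPM (right), each against the Control level of the same set (FPM, log axis), 1 point per set. The ratio, which shares its Control value with the x axis, falls from 32.54 in EC set 14 to 1.489 in WT VSMC, while the differences lie between 95.35 and 549.4 FPM.

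To ask whether Angptl4 was also higher when HG+FFA came on top of the humoral stressors, ALL was compared with AII+NA. This contrast is the difference of 2 ratios to Control that were known when the genes were chosen, so that its values are a description as well. Angptl4 was higher with ALL in all sets with both libraries, by 1.38 to 5.249 times in WT VSMC (4 of 4 sets), 4.689 to 12.15 times in KO VSMC (3 of 3) and 2.137 to 22.65 times in EC (9 of 9). The log2FC was 1.22 (SE 0.29, 95% confidence interval 0.61 to 1.83) in WT VSMC, 2.83 (SE 0.40, 1.97 to 3.69) in KO VSMC and 3.39 (SE 0.31, 2.75 to 4.03) in EC. Of all genes tested, 0.309%, 0.217% and 0.269% were called higher in this comparison, from which nothing is read about Angptl4. Without the replicate block the log2FC was 1.04, 1.35 and 2.00 in the same order. Without set 1 it was 0.86 in WT VSMC. Without KO set 5 it was 3.10, and without EC sets 9, 11 and 13 it was 4.02 (SE 0.21).

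When AII+NA was added to HG+FFA, the fitted change of Angptl4 was near 0 and its interval included 0 in each group. The log2FC of ALL against HG+FFA was -0.04 (95% confidence interval -0.63 to 0.56) in WT VSMC, 0.25 (-0.53 to 1.03) in KO VSMC and 0.01 (-0.53 to 0.55) in EC. In KO VSMC the 3 sets with both libraries had a mean log2 ratio of 0.01 (SD 0.15), while the fit also used set 5, which lacks ALL. The departure from additivity, by which the log2 ratio of ALL to Control exceeds the sum of those of HG+FFA and AII+NA, was -0.10 (-0.94 to 0.74), 0.72 (-0.36 to 1.80) and 0.18 (-0.62 to 0.98). Among all genes, 0.0322%, 0% and 0% were called in ALL against HG+FFA and 0% for additivity in each group.

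The difference between WT VSMC and KO VSMC in the log2 ratio of Angptl4 to Control, again formed from the known ratios, had an interval that included 0 for HG+FFA and AII+NA and ended just below 0 for ALL. WT minus KO was -0.80 (95% confidence interval -1.84 to 0.23) for HG+FFA, 0.52 (-0.49 to 1.54) for AII+NA and -1.08 (-2.17 to -0.0028) for ALL. The Control level of KO VSMC against WT VSMC had a log2FC of -0.76 (-2.67 to 1.15), within the spread between sets, and ran from -1.56 to -0.39 when 1 set was left out. Of all genes, 0.00682% were called in that comparison of levels and 0%, 0% and 0.012% in the differences between genotypes.

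Between EC and WT VSMC, the difference in the log2 ratio of Angptl4 was larger without EC sets 9, 11 and 13. The ratios were known when the gene was chosen and the sets were left out after the data were seen, so that these values carry no test. With all sets, EC minus WT was 1.89 (SE 0.50, 95% confidence interval 0.87 to 2.90) for HG+FFA and 1.95 (SE 0.50, 0.93 to 2.96) for ALL. Without the 3 sets it was 2.51 (SE 0.36, 1.78 to 3.24) for HG+FFA and 2.54 (SE 0.36, 1.81 to 3.27) for ALL, ratios 5.71 and 5.82 times those of WT VSMC. In these fits 0.00584% and 0.134% of all genes were called higher. The Control level of Angptl4 in EC against WT VSMC was -1.87 (-4.08 to 0.34) with all sets. Without the 3 sets it was -4.69 (SE 0.54, -5.90 to -3.49), a 25.9-fold lower level, where 11.5% of all genes were called lower.

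**Figure D4:**
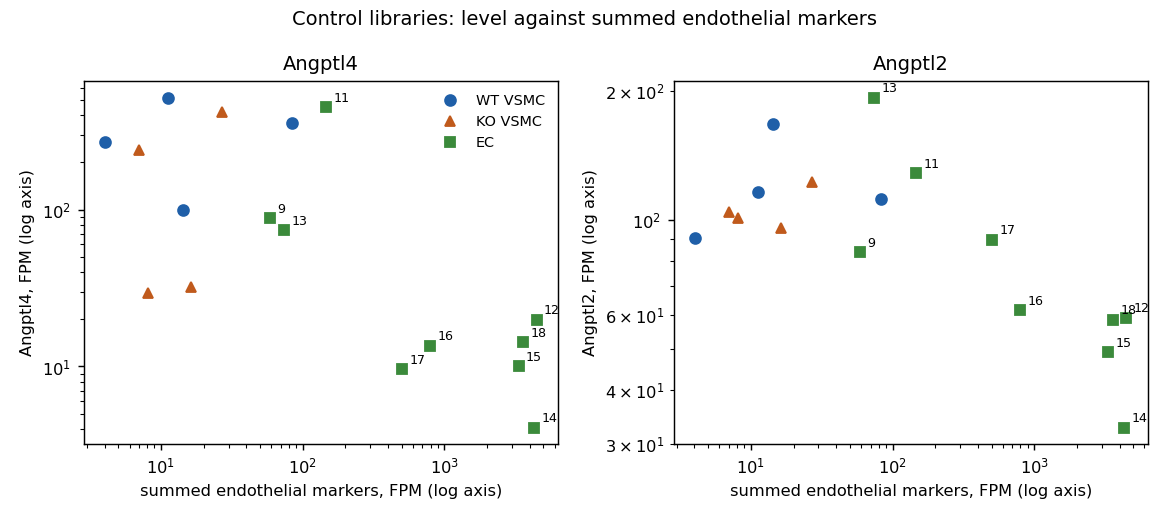
Control libraries only: level of Angptl4 (left) and Angptl2 (right) in FPM against the summed level of 12 endothelial markers in FPM, both on log axes, with EC sets numbered. EC sets 9, 11 and 13 lie at the VSMC end of the marker axis and have 88.07, 448.9 and 74.16 FPM of Angptl4, above the 4.077 to 19.93 FPM of the other EC sets.

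The makeup of the EC cultures differed between sets. Summed fibroblast markers in the EC Control libraries ran from 2360 to 29850 FPM, with 29850 FPM in set 11, 26160 FPM in set 13, 15670 FPM in set 17 and 8185 FPM in set 9. Under Control, sets 11, 13 and 9 had 448.9, 74.16 and 88.07 FPM of Angptl4, and set 17 had 9.612 FPM. Set 12, with the lowest fibroblast sum of 2360 FPM, had 19.93 FPM, the highest of the 6 sets with high endothelial sums. In WT VSMC these fibroblast markers summed to 10160 to 33840 FPM. In KO VSMC they summed to 3529 to 4867 FPM in sets 6 to 8 and to 18530 FPM in set 5. The part of other cells in the Angptl4 level was not tested. In such bulk samples, fewer cells of a type and less RNA per cell cannot be told apart. EC sets 15 and 16, from animals with the KO VSMC, had Control levels of 10.02 and 13.54 FPM and HG+FFA ratios of 10.42 and 10.71, the lowest of the 6 EC sets with high endothelial sums. Their Egfr levels, averaged over the libraries of a set, were 2.63% and 0.739% of the WT VSMC mean, against 3.58 to 42.2% in the other EC sets.

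Angptl7 moved opposite to Angptl4 under HG+FFA in 16 of 17 sets and under ALL in 16 of 16. In WT VSMC the Control levels were 2.109, 3.394, 12.80 and 8.279 FPM in sets 1 to 4. With HG+FFA they were 0.8102, 1.561, 5.043 and 5.947 FPM, and with ALL 0.5849, 1.106, 5.089 and 4.017 FPM. Each set was lower than its own Control, although the groups overlapped because sets 1 and 2 started below the treated libraries of sets 3 and 4. With AII+NA the levels were 1.749, 2.501, 10.84 and 4.224 FPM, also below their own Control in 4 of 4 sets. The ratio to Control was 0.3986 to 0.7218 for HG+FFA (mean log2 ratio -1.04, SD 0.39, n = 4), 0.3101 to 0.4914 for ALL (-1.39, SD 0.29, n = 4) and 0.516 to 0.8477 for AII+NA (-0.47, SD 0.33, n = 4).

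In KO VSMC the Control levels of Angptl7 were 158.1, 7.175, 11.05 and 2.233 FPM in sets 5 to 8. Set 5 stood apart in each of its libraries, with 151.4 FPM under HG+FFA and 139.5 FPM under AII+NA. The other 3 sets had 4.970, 5.338 and 1.662 FPM with HG+FFA, 5.477, 12.72 and 2.031 FPM with AII+NA, and 5.428, 5.824 and 1.124 FPM with ALL. All 4 sets were lower with HG+FFA than with Control, set 5 the least, with a ratio of 0.9578. The mean log2 ratio was -0.51 (SD 0.40, n = 4) for HG+FFA and -0.75 (SD 0.30, n = 3) for ALL. The Control level of KO VSMC against WT VSMC was 2.75 (95% confidence interval -0.02 to 5.51), and 0.03 without set 5, so that the higher KO mean rests on this set.

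In EC the level of Angptl7 was at or below 5.24 FPM in all libraries but those of set 17. Set 17 had 24.06 FPM with Control, 11.53 with HG+FFA, 29.73 with AII+NA and 12.37 with ALL. Set 18, from the same animal, had 4.241, 0.3605, 0.1836 and 3.358 FPM. The Control median was 2.919 FPM and that of HG+FFA 0.6073 FPM. Several values rest on few counts, with 0 counts in set 11 under HG+FFA and in set 12 under ALL. HG+FFA was below Control in 8 of 9 sets (mean log2 ratio -1.22, SD 1.09, with 0.1 FPM added) and ALL in 9 of 9 (-1.08, SD 0.55). Without EC sets 9, 11 and 13 the means were -1.43 (SD 1.25, n = 6) and -1.05 (SD 0.48, n = 6). With AII+NA, 5 sets were higher and 3 lower.

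**Figure D5:**
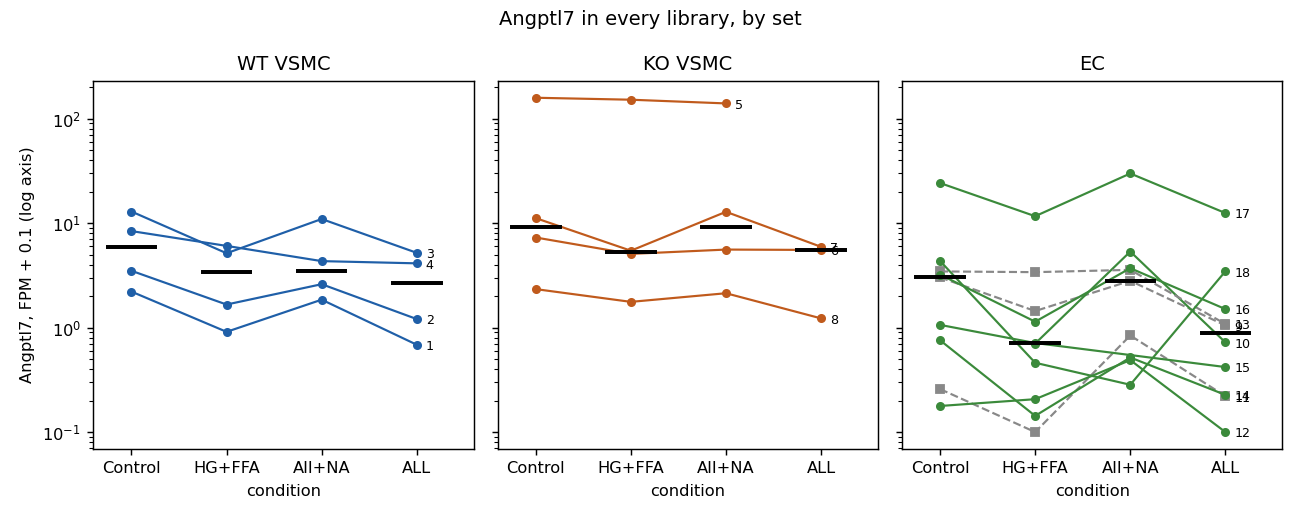
Level of Angptl7 (FPM + 0.1, log axis) in each library of WT VSMC, KO VSMC and EC by condition; lines join the libraries of a set, the number gives the set, and black bars are medians. KO VSMC set 5 lies at 139.5 to 158.1 FPM and EC set 17 at 11.53 to 29.73 FPM, apart from the other sets, and lines fall from AII+NA to ALL in all but EC set 18.

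For ALL against AII+NA the fitted log2FC of Angptl7 was -0.92 (SE 0.23, 95% confidence interval -1.39 to -0.44) in WT VSMC, -0.55 (SE 0.22, -1.02 to -0.08) in KO VSMC and -1.42 (SE 0.46, -2.36 to -0.49) in EC. These are differences of known ratios and carry no test. Of all genes, 0.277%, 0.112% and 0.365% were called lower. ALL was lower in 4 of 4, 3 of 3 and 8 of 9 sets. In WT VSMC the log2FC was -1.21 without set 4. In EC, set 18 went the other way, with 12.19 times more Angptl7 under ALL than under AII+NA, and without it the edgeR log2FC was -1.98. Without EC sets 9, 11 and 13 it was -1.18. WT minus KO was -0.54 for HG+FFA (95% confidence interval -1.15 to 0.06) and -0.72 for ALL (-1.39 to -0.05).

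Angptl2 had no shared direction across the 3 groups. In KO VSMC it stayed within 90.58 to 122.4 FPM over all 15 libraries, and the mean log2 ratios to Control were between -0.05 and 0.01. In WT VSMC the Control levels were 167.8, 111.9, 90.47 and 116.3 FPM in sets 1 to 4. With ALL they were 148.8, 86.36, 86.81 and 64.89 FPM, and with AII+NA 122.7, 79.58, 93.98 and 77.89 FPM. All 4 sets were lower with ALL, by a mean log2 ratio of -0.36 (SD 0.34), and 3 of 4 with AII+NA (-0.37, SD 0.29), while HG+FFA gave 143.3, 117.8, 95.01 and 100.3 FPM (-0.07, SD 0.17). WT minus KO was -0.34 (95% confidence interval -0.64 to -0.05) for AII+NA and -0.29 (-0.59 to 0.02) for ALL.

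In EC, Angptl2 ran from 31.92 to 193 FPM, and the mean log2 ratios to Control were 0.04 (SD 0.49, n = 9) for HG+FFA, 0.05 (SD 0.28, n = 8) for AII+NA and 0.03 (SD 0.40, n = 9) for ALL, with sets on both sides of 0. Under Control the 6 sets with high endothelial sums had 32.69 to 89.73 FPM (median 58.72), and sets 9, 11 and 13 had 84.01 to 193 FPM. The Control level against WT VSMC was -0.49 (95% confidence interval -1.33 to 0.36) with all sets, where 4.84% of all genes were called lower. Without the 3 sets it was -1.10 (SE 0.25), a 2.15-fold lower level. For Angptl2 as for Angptl4, the EC level was thus farther below that of WT VSMC in the fit without these sets.

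Angptl1 had the lowest mean level per length of the 4 genes. In WT VSMC the Control levels were 4.493, 2.468, 0.7128 and 4.34 FPM in sets 1 to 4, and with ALL they were 3.38, 1.962, 0.3635 and 1.962 FPM, lower in 4 of 4 sets (mean log2 ratio -0.66, SD 0.37). In KO VSMC the Control levels were 2.775, 4.832, 1.344 and 0.4556 FPM in sets 5 to 8 and those with HG+FFA 0.9602, 1.982, 0.9909 and 0.2216 FPM, lower in 4 of 4 sets (-0.97, SD 0.46). ALL, however, was lower in only 2 of 3 KO sets. In EC the level was 0 to 2.984 FPM, and sets 9, 11 and 13 had at most 0.1271 FPM under Control against 0.4031 to 2.484 FPM in the other sets. All 4 genes passed the filter on low counts in each of the 3 groups.

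Angptl6 and Angptl8 were little expressed. Angptl6 had Control means of 4.631 FPM in WT VSMC (SD 0.978, n = 4), 4.149 FPM in KO VSMC (SD 1.416, n = 4) and 1.426 FPM in EC (SD 1.425, n = 9). Angptl8, which is known to respond to feeding in liver and fat, had Control means of 0.9191, 0.342 and 0.7118 FPM and its highest value, 3.211 FPM, in EC set 11. Both were tested, and none of their 18 comparisons with Control was called by edgeR and DESeq2 or reached an FDR below 0.05 in either tool, with 3 at an unadjusted p below 0.05.

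Genes of the pathways around ANGPTL4 were taken from lists chosen with earlier results known. Their calls and FDRs therefore describe these lists and are no independent evidence of a response around Angptl4. Of the 26 fatty acid oxidation and PPAR target genes, 24 were tested in each group. With HG+FFA WT VSMC had 3 genes called higher, KO VSMC had 5 and EC had 8. With ALL these numbers were 5, 6 and 8, and none was called lower. With AII+NA none of the 72 tests was called, 0 had an FDR below 0.05 in edgeR or DESeq2 and 10 had an unadjusted p below 0.05. Over all genes 0.0516%, 0% and 0% were called with AII+NA. A count of 0 in this or a later list is near that share and is not read as a trait of the list. The list's median log2FC for HG+FFA was 0.23, 0.35 and 0.52, against 0.00, -0.01 and -0.01 over all genes tested. Pdk4, a kinase that limits glucose oxidation, rose by 1.53 (SE 0.23, edgeR FDR 0.00634) in WT VSMC and 1.61 (SE 0.19, FDR 0.00155) in KO VSMC. Ech1, of the oxidation of unsaturated fatty acids, rose by 0.68 in WT VSMC, and Cpt1a, the gate of mitochondrial fatty acid uptake, by 1.01 in KO VSMC. In EC, Ucp2, a mitochondrial carrier, rose by 1.99, and Fabp4, a fatty acid binding protein, by 1.51. With ALL, the fatty acid receptor gene Cd36 (1.96) and Fabp4 (1.83) had the largest log2FC in WT VSMC. In ALL against AII+NA 4, 7 and 10 genes of the list were called higher, against 0.309%, 0.217% and 0.269% of all genes. In ALL against HG+FFA none was called by either tool, with 3 of 72 tests at an unadjusted p below 0.05. Over all genes 0.0322%, 0% and 0% were called there. Without EC sets 9, 11 and 13, 9 were called higher with HG+FFA and 9 with ALL, and without KO set 5, 5 and 6 of 22 tested. Among all genes, 0.304% and 0.268% were called higher without these EC sets and 1.04% and 0.431% without KO set 5.

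Of the lipase system, 7 of 12 genes were tested in VSMC and 8 in EC, and none was called with HG+FFA or AII+NA. With HG+FFA 6 of 22 tests had an unadjusted edgeR p below 0.05, 2 an edgeR FDR and 3 a DESeq2 adjusted p below 0.05, and with AII+NA these numbers were 2, 0 and 1. Lpl, the lipase that ANGPTL4 inhibits, had Control means of 53.1, 22.9 and 69.9 FPM in WT VSMC, KO VSMC and EC, while Apoc2, its activator, was at 0 in every library. In WT VSMC with ALL, 1 gene of this list was called higher and 1 lower, the latter the very-low-density lipoprotein receptor gene Vldlr, which fell by 0.71 (SE 0.13, edgeR FDR 0.00326). In KO VSMC with ALL, Vldlr fell by 0.65 (SE 0.13, FDR 0.0365), and in EC no gene of this list was called. Without KO set 5 the log2FC of Vldlr was -0.56 and the call was lost. For ALL against Control, 1.37%, 0.229% and 0.221% of all genes were called higher and 0.973%, 0.124% and 0.419% lower.

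Of 10 genes for integrins, syndecans and a receptor that bind angiopoietin-like proteins, only Itgb3 was called against Control. This integrin subunit gene fell by 0.93 (SE 0.15, edgeR FDR 0.00155) with ALL in WT VSMC. Itgb1, the partner of many integrin alpha chains, had Control means of 1136, 1273 and 1707 FPM. All 4 genes of the proprotein convertases that can cleave ANGPTL4 were tested and none was called against Control. Of their 36 tests 10 had an unadjusted edgeR p below 0.05, 1 passed in edgeR and 2 in DESeq2, short of the limit on log2FC or of the second tool. Furin was at 145, 114 and 107 FPM under Control. Of 10 genes for transcription factors upstream of Angptl4, none was called against Control with all sets, with 18 of 90 tests at an unadjusted p below 0.05, 1 passing in edgeR and 2 in DESeq2. Without KO set 5, Pparg, the gene of a PPAR receptor, was called higher in KO VSMC with HG+FFA (0.91) and ALL (0.96), against 0.69 and 0.87 with all sets. Per Control mean, Ppard was at 42.5, 35.8 and 31.3 FPM, Pparg at 4.05, 2.54 and 7.58 FPM and Ppara at 0.826, 0.707 and 0.743 FPM. With all sets none of the 15 hypoxia targets was called against Control, with 28 of 135 tests at an unadjusted p below 0.05, 8 passing in edgeR and 15 in DESeq2. Without EC sets 9, 11 and 13, Adm, the gene of the vasodilator peptide adrenomedullin, was called higher in EC with HG+FFA (0.66) and ALL (0.73), against 0.45 and 0.52 with all sets. Without KO set 5, Ndrg1 was called lower in KO VSMC with HG+FFA (-0.76, against -0.65 with all sets). Over all genes 0.83% were called lower in that fit. Adm, Ndrg1 and Pparg are named after their values were seen. Of 7 tested glucocorticoid targets, Dusp1, a MAP kinase phosphatase, rose with ALL by 0.92 in WT VSMC and 0.65 in KO VSMC. Of the angiopoietin and TIE genes, Angpt4 was higher with ALL than with AII+NA in WT VSMC (0.84, SE 0.14, edgeR FDR 0.00587). Angpt2, an antagonist of TIE2, was at 467, 434 and 75.2 FPM under Control and was not called.

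The genes whose pattern across conditions was most like that of Angptl4 were searched among 10880 genes with at least 3 FPM in each group. The measure was the correlation of log2 levels, centred on the mean of each set, over 60 libraries of 15 complete sets (16 of WT VSMC, 12 of KO VSMC and 32 of EC), averaged over the 3 groups. The libraries of a set share animal and preparation, so that this is a description. Among the genes with the highest mean r, it was 0.929 for Stbd1, a glycogen-binding protein, 0.926 for the purine base transporter gene Slc43a3, 0.917 for Pdk4, 0.914 for Ech1, 0.913 for the lipid droplet gene Plin2, 0.912 for the hormone-sensitive lipase gene Lipe and 0.910 for Acadl, of mitochondrial fatty acid oxidation. Of these 7 genes, Pdk4, Ech1, Plin2 and Acadl were in the list of fatty acid genes.

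By the same measure Angptl7 had a mean r of -0.70 with Angptl4, from -0.83 (WT VSMC) and -0.77 (KO VSMC) to -0.49 (EC), and ranked 10770 of 10880. Angptl2 had a mean r of 0.02 with Angptl4. The genes most like Angptl7 were Mturn (mean r 0.807), the cytokine gene Il16 (0.791) and the secreted carboxypeptidase family gene Cpxm1 (0.769), and those most like Angptl2 were Kifc2 (0.725), Pyroxd2 (0.713) and Arrb1 (0.709). Angptl1 was not ranked, as its mean was below 3 FPM in some or all of the groups.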

How the data were processed

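Raw counts per gene were deposited by the authors for each cell type. Per the labels and the study's methods, poly(A) RNA was sequenced, aligned with HISAT2 2.1.0 to mm39 and counted with featureCounts. From these counts FPM (TMM scaling over 69 libraries) and, within each cell type, edgeR 4.0.16 quasi-likelihood tests with DESeq2 1.42.0 beside them (R 4.3.3) were computed, with the set as block. The block comes from the shared animal and preparation of a set. Deviations of same-set libraries correlated at 0.445 or more (WT VSMC), 0.635 (KO VSMC) and 0.707 (EC). Ratios of single libraries used 0.1 FPM as pseudocount. The FPM and log2FC limits followed the study's methods. Libraries held 17166133 to 43240489 counts. Intervals are 95% and come from the fits across all genes. Python 3.11.15 was used for descriptions and figures, and the scripts were tested on simulated data.

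The members and gene lists were chosen with earlier results of these data known, so that fits of the members are given with standard errors and intervals but no p-value. Named were the 4 genes, Angptl6 and Angptl8, up to 3 called genes per list and comparison with the largest log2FC, and the genes most like a member (8 for Angptl4, 3 for each other); further genes of the lists named for their level were chosen after their values were seen. The alternatives were another tool or scaling, no filter, no FPM minimum, no block, complete sets, another pseudocount and leaving out each set. Leaving out EC sets 9, 11 and 13 together, and KO set 5 for the gene lists, was added after seeing the data. The count rows of 643 identifiers without a match in the annotation, 0.0241% of counts, were kept in library sizes. Where nothing else is said, sets are separate cultures, and 2 EC sets come from 1 animal. Protein sequences were not used here. Some genes that the rule for named genes also selects are not reported here.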

Additional observations from a re-analysis of the deposited data

Results flagged for a closer look

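Of 76 groups of 4 to 10 values tested for a single value far from the others, 13 had one. The limit is set for about 1 in 20 groups, if groups are independent and values normally distributed. Here the same sets recur in several conditions and FPM values need not be normal, so that 13 is not compared with chance. Angptl4 stood out in EC set 11 in each condition, with 448.9 FPM under Control, 767.9 FPM with HG+FFA, 472.9 FPM with AII+NA and 1011 FPM with ALL. This set also had 143.5 to 149.1 FPM of summed endothelial markers and the highest fibroblast sum of the EC Control libraries, and their part in the level was not tested. Angptl7 stood out in KO VSMC set 5, with 158.1 FPM under Control, 151.4 FPM with HG+FFA and 139.5 FPM with AII+NA. This set kept 10.1% of Egfr. It also had 18530 FPM of summed fibroblast markers under Control, against 3529 to 4867 FPM in KO sets 6 to 8. Its summed smooth muscle and leukocyte markers, 3074 and 127.8 FPM, were the highest of the KO Control libraries as well. The part of Egfr or of these cells in the level was not tested. Angptl7 also stood out in EC set 17, with 24.06 FPM under Control, 11.53 FPM with HG+FFA, 29.73 FPM with AII+NA and 12.37 FPM with ALL. In EC set 18, of the same animal, the log2 ratio of AII+NA to Control was -3.94 for Angptl7. The log2 ratio of ALL to Control was 0.92 for Angptl2 in EC set 16, away from the other EC sets.

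The ratio of Angptl4 was higher in EC than in WT VSMC in the fits without EC sets 9, 11 and 13, by 2.51 for HG+FFA and 2.54 for ALL on the log2 scale. The ratios were known when the gene was chosen and the sets were left out after the data were seen, so that no test is given.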

How the results depend on the processing

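The values behind the fits of the 4 genes were known when the genes were chosen, so that passing or missing the limits of a call is used here only to describe how the fits moved. For Angptl4, 218 alternatives were computed over 17 fitted results, of which 191 kept direction and side of the threshold, 6 newly passed, 9 no longer passed and 12 changed direction. For Angptl7 70 of 77 kept both, 6 newly passed and 1 changed direction. The mean ratios and fitted log2FC to Control moved by less than 1 SD between sets in 67 of 70 alternatives for Angptl4. For Angptl7 these were 68 of 70 and for Angptl2 70 of 70. Leaving out 1 set cannot move a mean ratio by as much as that SD. The outcome of those alternatives was thus fixed in advance, and no stability is read from these counts.

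Without the replicate block, ALL against AII+NA for Angptl4 no longer met those limits, at 1.04 (WT VSMC), 1.35 (KO VSMC) and 2.00 (EC). In that fit ALL against HG+FFA was -0.30 and the departure from additivity -0.0089 in KO VSMC, and WT minus KO for ALL was 0.033 for Angptl4 and 2.11 for Angptl7. With DESeq2's size factors in edgeR, ALL against AII+NA in WT VSMC was 1.22 and just missed them. Leaving out 1 set gave 0.86 to 1.51 in WT VSMC and 2.52 to 3.13 in KO VSMC for the same comparison. ALL against HG+FFA for Angptl4 ranged over left-out sets from -0.092 to 0.01 (WT VSMC), -0.004 to 0.39 (KO VSMC) and -0.042 to 0.086 (EC). With complete sets only it was -0.004 in KO VSMC and -0.083 in EC, and without the EC sets low in endothelial markers -0.011. These values lie around 0 within the intervals of the report. EC minus WT for ALL missed the limits with all sets, met them with DESeq2 alone (1.98), without the filter on low counts (1.95) and without the low EC sets (2.54), and ranged from 1.67 without set 4 to 2.27 without set 1. For HG+FFA the EC minus WT difference was 2.51, and for the Control level -4.69, without the low EC sets. The causes were not tested. Leaving out the replicate block changed no other call of these 2 genes. Depth limits Angptl1 and, in EC, Angptl7, whose values rest on as little as 0 counts.

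Over all genes, the counts of calls also depended on the processing. Without the replicate block, 14 of 24 counts fell by more than 1.5 times. In WT VSMC they went from 364 to 0 (ALL against Control), 91 to 0 (ALL against AII+NA), 51 to 0 (HG+FFA), 8 to 0 (AII+NA) and 5 to 0 (ALL against HG+FFA). In KO VSMC they went from 57 to 0 (ALL), 53 to 0 (ALL against AII+NA) and 47 to 0 (HG+FFA), and in EC from 107 to 2, 106 to 3 and 112 to 2 for the same comparisons. For EC minus WT they went from 84 to 0 (ALL) and 9 to 0 (AII+NA), and for WT minus KO from 2 to 0 (ALL). Without the filter on low counts, 12 of 26 counts grew by more than 1.5 times. These were in WT VSMC 8 to 57 (AII+NA) and 5 to 61 (ALL against HG+FFA), in KO VSMC 57 to 130 (ALL), 53 to 127 (ALL against AII+NA), 47 to 85 (HG+FFA), 0 to 13 (AII+NA) and 0 to 1 (additivity), for WT minus KO 2 to 43 (ALL) and 0 to 7 (AII+NA), for EC minus WT 9 to 36 (AII+NA) and 0 to 2 (HG+FFA), and for the Control level of KO against WT 1 to 10. With complete sets only, counts in KO VSMC were 291 (HG+FFA), 124 (ALL) and 85 (ALL against AII+NA), those in EC 71 (ALL) and 67 (ALL against AII+NA), that for EC minus WT 3 (AII+NA) and that for WT minus KO 7 (ALL). With the animal as block, the EC counts were 49 (HG+FFA), 43 (ALL) and 50 (ALL against AII+NA). Summing the conditions took the EC level count from 1583 to 2736. With DESeq2's size factors 0 of 26 counts moved that far.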

Other observations

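Some animals gave both VSMC and EC. In the animal of WT VSMC set 1 and EC set 9, Angptl4 under Control was at 99.55 FPM in VSMC and 88.07 FPM in EC, a set low in endothelial markers. In the animals of KO VSMC sets 7 and 6, it was at 32.11 and 29.37 FPM in VSMC and at 10.02 and 13.54 FPM in EC sets 15 and 16. In the animal of EC sets 17 and 18, Angptl4 under Control was at 9.612 and 14.25 FPM, with HG+FFA ratios of 15.43 and 13.9, while Angptl7 was at 24.06 and 4.241 FPM. With 3 such pairs of VSMC and EC with both Control libraries, no test was made.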
